A study of Homo sapiens with 9 samples.

Results

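The genes described here are 47 genes of DNA replication in SKMEL28 cells, an established human melanoma line, and they were chosen by symbol: origin recognition, helicase loading and firing factors, the MCM helicase, the replicative polymerases and primase, the clamp and its loader, and proteins that protect or follow the fork. Each of the 47 symbols matched 1 of the 48162 genes in the deposited tables, and all 47 were among the 15776 genes that passed the filter on low counts. RNA was sequenced from 9 libraries, 3 each of shCont, shp16 and shp16+shATR. The shCont cells carried a lentiviral hairpin against GFP, the shp16 cells one against p16, and the shp16+shATR cells hairpins against both p16 and ATR. All groups were grown in DMEM with 5% FBS and kept for 3 days in puromycin at 1 µg/ml. The libraries of a group are described by the study as technical replicates of a single experiment, so the p-values below measure only the spread between these libraries, which may be technical. Which ATR hairpin was used, and whether shp16 cells also received a second control virus, are not given in the sources used here.

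Replication is licensed in G1 phase, when the origin recognition complex, CDC6 and CDT1 load MCM2 to MCM7 as a ring around DNA, and geminin (GMNN) blocks loading again once S phase has begun. Origins fire when CDC7 with DBF4 and the cyclin-dependent kinases turn the loaded ring into an active helicase by adding CDC45 and the GINS complex, after which polymerases, the PCNA clamp and RPA work at the fork. Many of these genes are transcribed at the G1 to S transition by E2F factors, which the p16 and RB pathway restrains, and ATR is the kinase that answers stalled forks and limits origin firing.

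The levels are FPKM, the authors' counts scaled by gene length and library total, and each member's mean FPKM over the 9 libraries lay between 2.86 (GINS3) and 151 (PCNA). Total counts per library ranged from 17314662 to 23588174, and the 47 members had between 112 and 9242 counts in a library. All 8 melanocytic markers examined were present, the lowest being TYRP1 at 18.5 FPKM or more, while the immune markers PTPRC and CD3E had 0 counts in every library. Transcripts of ATR were at 5.34, 11.8 and 11.8 FPKM in shCont replicates 1 to 3, at 10.6, 10.4 and 10.6 in shp16 and at 4.84, 4.92 and 4.89 in shp16+shATR. The library labelled shCont 1 therefore lay near the shp16+shATR libraries in ATR level, unlike shCont 2 and 3. In 3 epithelial markers it lay with shCont. CDH1 was at 0.348 to 0.620 FPKM over the shCont libraries and at 4.18 to 4.59 in shp16+shATR. KRT5 was at 0 in shCont and at 0.139 to 0.890 in shp16+shATR, and KRT14 at 0.0962 or less and 0.666 or more. EPCAM overlapped between these groups. Whether the label is right was not tested. CDKN2A, which encodes p16, was at 121, 91.0 and 81.0 FPKM in shCont, 57.1, 74.8 and 79.8 in shp16 and 64.5, 71.2 and 63.1 in shp16+shATR. Its 3 shp16 libraries lay below the 3 shCont libraries, but the log2 fold change of −0.48 (SE 0.16) had an edgeR adjusted p of 0.0723. Over the members, the library labelled shCont 1 lay outside the range of the other shCont libraries in 46 of 47 (24 above, 22 below), and shp16 1 lay outside the other shp16 libraries in 42 (20 above, 22 below). The shp16+shATR libraries 1 to 3 lay outside their group mates in 21, 34 and 39 members. The median distance from the group mates was 0.224 on the log2 scale for shCont 1, 0.136 for shp16 1 and 0.090 for shp16+shATR 3. The share over all genes was not computed. Over 14891 to 15344 genes a pair, a chi-square per gene measured the difference between libraries beyond sampling noise. It was 68.5 and 83.4 for shCont 1 with shCont 2 and 3, and 5.15 for shCont 2 with 3. It was 37.9 and 37.2 for shp16 1 with shp16 2 and 3, and 1.94 for shp16 2 with 3. The pairs of shp16+shATR had 2.95 to 9.66. Standing apart was thus not particular to the members. Main results that rest on shCont 1 or shp16 1 are given with and without these 2 libraries. In the table's annotation 25 members overlap another gene, and in 12 the partner has over 10% of the member's mean count. Those 12 are MCM2, GINS2, ORC4, RFC4, RFC5, RPA1, RPA3, PRIM1, POLD3, POLE, FEN1 and DBF4. The part of the partners in the counts was not tested for any of them. Whether counting used strand is not given in the sources used here.

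**Figure D1:**
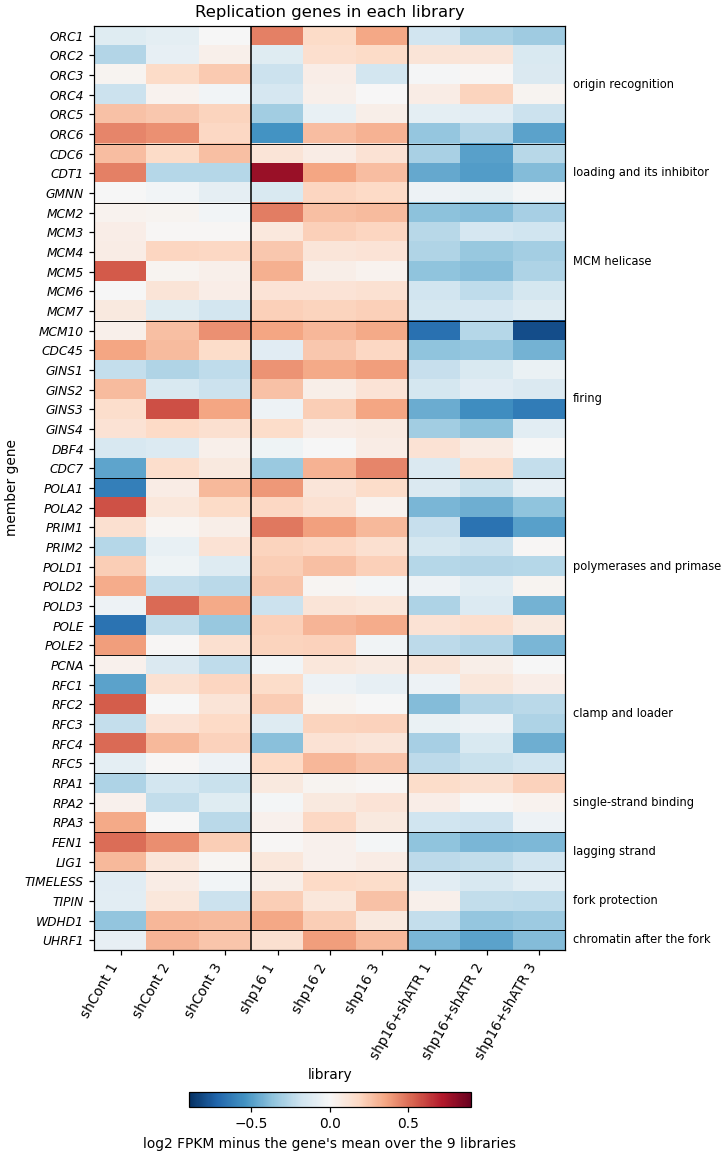
Heat map of the 47 members (rows, grouped by role) in the 9 libraries (columns). Colour is log2 FPKM minus the gene's own mean over the 9 libraries, so blue is below and red above that mean. Most rows are blue in the 3 shp16+shATR columns, and the columns shCont 1 and shp16 1 differ from their group mates in many rows.

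A property that the choice of genes did not use is the sequence before the gene start. Promoters of 250 bases before to 50 bases after a start were read from RefSeq (GRCh38.p14), with an entry for 41 of the 47 members. MCM4, MCM5, GINS4, RPA2, RPA3 and POLD3 had no entry. An E2F motif, searched on both strands as TTTCCCGC, TTTCGCGC, TTTGCCGC or TTTGGCGC, stood in at least 1 promoter of 21 of the 41 members (51.2%) and of 1090 of the 27305 genes listed (3.99%). The genes listed include genes that were not tested here, whereas all members were tested. Of the tested genes with an entry, 651 had an E2F match and 9305 had none. Matches on opposite strands can overlap and were then counted separately, as in MCM6 and TIPIN. The CCAAT box was found in 24 of 41 members (58.5%) against 39.7% of all genes, and the motif TTTGAA of the cell cycle homology region in 1 member (2.44%), DBF4, against 18.2%. For these 2 motifs the share over the tested genes was not computed. All such matches describe letters in a window and say nothing about binding. Short windows around an upstream E2F match are shown with the match in capitals, 5′ to 3′ on the gene's strand, for 3 members that were lower in shp16+shATR than in shp16 (CDT1, MCM3 and UHRF1), for POLE, which was higher in shp16 than in shCont, and for 2 members not called in any comparison (PCNA and ORC3).
CDT1 (chr16:88803744-88803771, plus strand): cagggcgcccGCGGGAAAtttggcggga
MCM3 (chr6:52284899-52284926, minus strand): ggatggtacgTTTCCCGCcaccgcgggg
UHRF1 (chr19:4909477-4909500, plus strand): ccgagttttcGCGGGAAAaaaatc
POLE (chr12:132687343-132687370, minus strand): gggtgggagcGCGCCAAAtttctcccct
PCNA (chr20:5126664-5126691, minus strand): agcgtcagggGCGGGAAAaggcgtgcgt
ORC3 (chr6:87590113-87590134, plus strand): gcgagggcgcGCGGGAAAtccc

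The comparison of shp16+shATR with shp16 asks what the added ATR hairpin changed. In it 14 of the 47 members were called lower and 0 higher at an adjusted p of 0.05 (edgeR's quasi-likelihood test over all 9 libraries, Benjamini-Hochberg over all 15776 genes). Among all genes tested, 3.49% were called lower and 2.73% higher. Over the 47 genes the log2 fold change had a median of −0.36, with 42 below 0, while over all genes tested it had a median of 0.0021. At an unadjusted p under 0.05 there were 28 members, all of them lower, against 10.6% of all genes that were lower at that threshold. DESeq2 called 19 members lower and 0 higher, and 5.22% of all genes lower. In 31 members all 3 shp16+shATR libraries lay below all 3 shp16 libraries, an arrangement found in 19.6% of all genes, and in 1 member (RPA1) they all lay above, as in 17.9% of all genes. In bulk RNA, fewer cells in S phase and less RNA of these genes per cell cannot be told apart. Of the 21 members with an E2F match 7 were called lower, with a median log2 fold change of −0.36, and of the 20 members with a promoter but no match 6 were called lower, with a median of −0.35. Among all genes tested that had a promoter entry, 6.76% of the 651 with a match were called lower (median −0.06) and 3.92% of the 9305 without one (median −0.013).

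**Figure D2:**
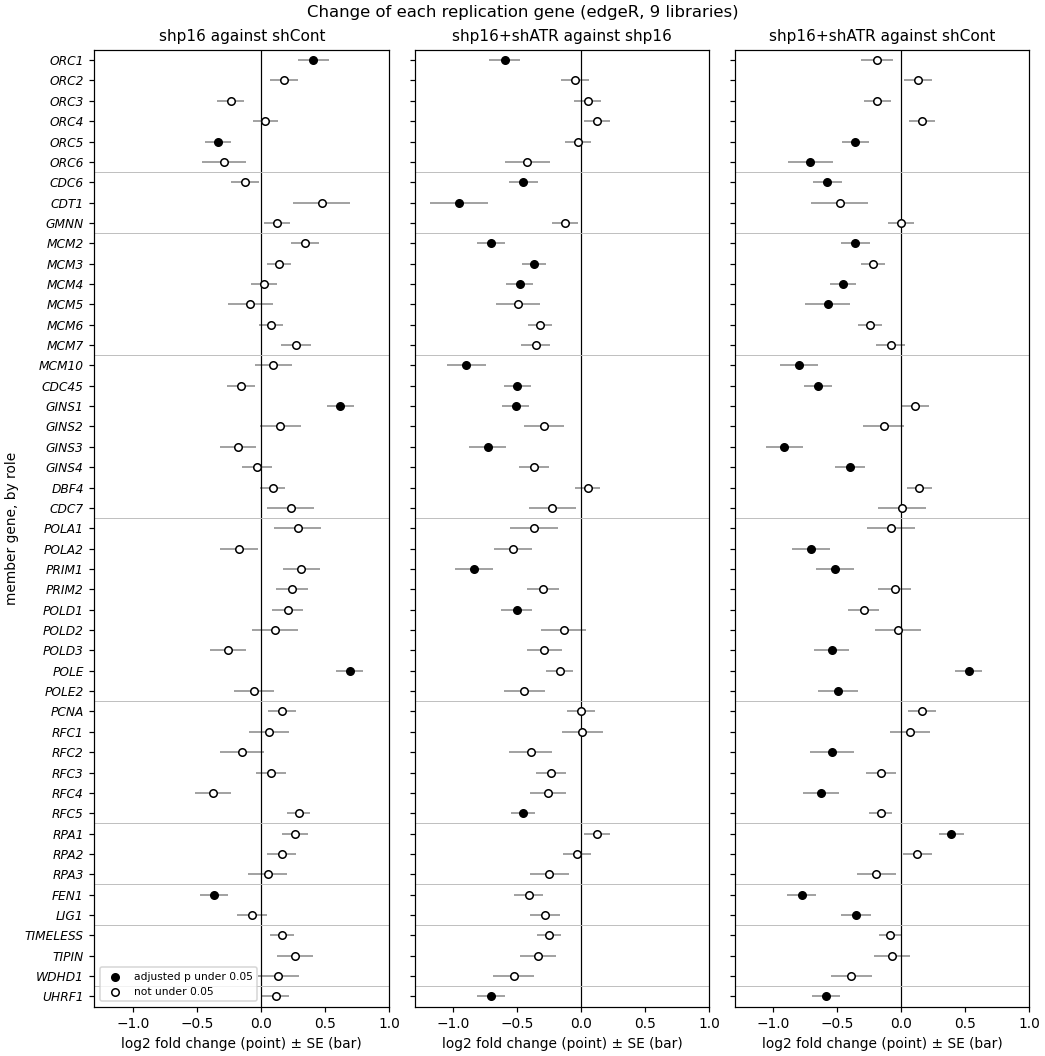
Log2 fold change (point) with its standard error (bar) of each of the 47 members, by role from top to bottom, in the 3 comparisons. Filled points have an edgeR adjusted p under 0.05. In the middle panel 42 of 47 points lie left of 0 and 14 are filled, while the left panel has 5 filled points and the right panel 21.

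Among the genes of origin recognition, ORC1 fell and the other subunits were not called. ORC1, the ATPase subunit whose level changes with the cell cycle (ENSG00000085840, chromosome 1 from 52838501 to 52870131 in GRCh37, minus strand), was at 13.2, 10.8 and 12.3 FPKM in shp16 and at 8.56, 7.90 and 7.70 in shp16+shATR. The groups did not overlap, and ORC1 fell by 33.9% (log2 fold change −0.60, SE 0.12, edgeR adjusted p = 0.015). ORC6 (ENSG00000091651, chromosome 16 from 46723555 to 46732306), the smallest subunit, was at 12.3, 21.6 and 22.1 FPKM in shp16 and at 13.99, 14.8 and 12.7 in shp16+shATR. Here shp16 1 lay below the shp16+shATR libraries and shp16 2 and 3 above them, and the adjusted p was 0.2 with all libraries and 1.07e-05 in edgeR without replicate 1 of shCont and shp16, where the log2 fold change was −0.62 (over all alternatives the adjusted p ran from 1.07e-05 to 0.543). ORC5, the most abundant subunit by mean FPKM (ENSG00000164815, chromosome 7 from 103766788 to 103848495), was at 15.4, 18.2 and 19.9 in shp16 and 18.04, 17.9 and 16.7 in shp16+shATR, which overlap. ORC2, ORC3, ORC4 and ORC5 had log2 fold changes between −0.05 and 0.13, with adjusted p of 0.544 or more.

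Of the loading factors, CDT1 and CDC6 fell. CDT1, which brings the MCM ring to the origin (ENSG00000167513, chromosome 16 from 88869621 to 88875666, plus strand), was at 26.3, 19.6 and 18.6 FPKM in shp16 and at 11.1, 10.8 and 11.7 in shp16+shATR. It fell by 48.4% (log2 fold change −0.95, SE 0.22, edgeR adjusted p = 0.0279), and even without shp16 1 and the library labelled shCont 1 the log2 fold change was −0.74. CDC6, the ATPase that joins the origin complex to load the ring, had a log2 fold change of −0.45 (SE 0.11, adjusted p = 0.0369). GMNN, the inhibitor of CDT1 (ENSG00000112312, chromosome 6 from 24775159 to 24786327), was at 28.99, 36.4 and 36.1 FPKM in shp16 and at 30.9, 30.6 and 31.5 in shp16+shATR. The library shp16 1 lay below the shp16+shATR libraries and the other shp16 libraries above them, and the log2 fold change was −0.13 (SE 0.10, adjusted p = 0.554).

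All 6 genes of the MCM ring had lower values in every shp16+shATR library than in any shp16 library. Summed over the 6 genes, the level was 414, 393 and 395 FPKM in shp16 and 296, 295 and 305 in shp16+shATR, against 388, 353 and 346 in shCont. MCM2, MCM3 and MCM4 passed the test, and MCM2 had the largest change. MCM2 (ENSG00000073111, chromosome 3 from 127317066 to 127341276) was at 58.0, 50.7 and 51.4 FPKM in shp16 and at 32.6, 32.3 and 34.1 in shp16+shATR, and it fell by 38.6% (log2 fold change −0.70, SE 0.11, edgeR adjusted p = 0.00455). MCM3 and MCM4 had log2 fold changes of −0.37 (adjusted p = 0.0417) and −0.48 (adjusted p = 0.02). MCM7, the most abundant ring gene by mean FPKM (ENSG00000166508, chromosome 7 from 99690351 to 99699563), was at 145, 143 and 145 in shp16 and 112, 112 and 115 in shp16+shATR. These groups were well apart, but with all 9 libraries in the fit the log2 fold change of −0.36 (SE 0.11) had an adjusted p of 0.0932. MCM5 and MCM6 were also not called, at −0.49 and −0.32 (adjusted p = 0.128 and 0.068).

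Among the 8 genes of origin firing, MCM10, GINS3, GINS1 and CDC45 fell. MCM10, which helps to activate the assembled helicase (ENSG00000065328, chromosome 10 from 13203554 to 13253104), was at 4.44, 4.26 and 4.40 FPKM in shp16 and at 2.18, 2.90 and 2.00 in shp16+shATR. It fell by 46.2% (log2 fold change −0.89, SE 0.15, edgeR adjusted p = 0.00547). The GINS subunits did not all pass the test. GINS3 (ENSG00000181938, chromosome 16 from 58328984 to 58440048) was at 2.66, 3.21 and 3.51 FPKM in shp16 and 2.02, 1.87 and 1.78 in shp16+shATR, with a log2 fold change of −0.73 (SE 0.14, adjusted p = 0.013). GINS1 (ENSG00000101003, chromosome 20 from 25388363 to 25433264) was at 23.8, 22.8 and 23.3 FPKM in shp16 and 15.6, 16.4 and 17.3 in shp16+shATR, with a log2 fold change of −0.51 (SE 0.10, adjusted p = 0.0151). Neither pair of groups overlapped. GINS2 and GINS4 were also lower in every shp16+shATR library than in any shp16 library. Their log2 fold changes of −0.29 and −0.37 were not called (adjusted p = 0.347 and 0.0966). CDC45, the helicase cofactor with the highest mean FPKM of the firing genes (ENSG00000093009, chromosome 22 from 19466982 to 19508135), was at 22.1, 27.9 and 26.9 in shp16 and 18.4, 18.5 and 17.6 in shp16+shATR. It fell by 29.1% (log2 fold change −0.50, SE 0.11, adjusted p = 0.0205). The firing kinase showed no call, with log2 fold changes of −0.22 for CDC7 and 0.05 for its activator DBF4.

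Of the polymerase and primase genes, PRIM1 and POLD1 fell, and all 9 genes had a log2 fold change below 0. PRIM1, the catalytic primase subunit that makes the RNA primer (ENSG00000198056, chromosome 12 from 57125406 to 57146157), was at 16.7, 15.5 and 14.7 FPKM in shp16 and at 10.4, 7.57 and 8.57 in shp16+shATR. It fell by 43.8% (log2 fold change −0.83, SE 0.15, edgeR adjusted p = 0.0078). In the table's annotation PRIM1 overlaps NACA on the same strand, which had 2430.3% of PRIM1's mean count and a log2 fold change of 0.04, and its part in the counts of PRIM1 was not tested. POLD1, the catalytic subunit of polymerase delta, had a log2 fold change of −0.50 (SE 0.12, adjusted p = 0.0318). POLD2, its partner subunit (ENSG00000106628, chromosome 7 from 44154286 to 44163957), was at 83.7, 71.2 and 69.6 FPKM in shp16 and 68.1, 66.0 and 71.9 in shp16+shATR, which overlap (log2 fold change −0.13, SE 0.18). POLE, the catalytic subunit of polymerase epsilon, differed from shp16 by −0.17 on the log2 scale (SE 0.11, adjusted p = 0.423). POLA1, POLA2, PRIM2, POLD3 and POLE2 lay between −0.53 and −0.29 and were not called.

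The clamp, its loader and the single-strand binding proteins held 1 call, RFC5. PCNA, the sliding clamp and the member with the highest mean FPKM (ENSG00000132646, chromosome 20 from 5095599 to 5107272), was at 148, 162 and 159 in shp16 and at 163, 156 and 150 in shp16+shATR. These overlap, with a log2 fold change of −0.0035 (SE 0.11, edgeR adjusted p = 0.992). RFC5, a loader subunit, had a log2 fold change of −0.46 (SE 0.09, adjusted p = 0.0141), but it overlaps WSB2 on the opposite strand, which had 341% of its mean count and a log2 fold change of −0.47, and whose part in the counts was not tested. RFC1, RFC2, RFC3 and RFC4 lay between −0.40 and 0.0099. RPA1, the large subunit of the single-strand binding complex (ENSG00000132383, chromosome 17 from 1732996 to 1803376), was at 46.3, 44.4 and 43.8 FPKM in shp16 and at 48.8, 48.2 and 50.3 in shp16+shATR. All 3 values were higher with the ATR hairpin, but the log2 fold change of 0.12 (SE 0.10) was not called (adjusted p = 0.543). RPA2 (ENSG00000117748, chromosome 1 from 28218035 to 28241257) was at 43.4, 46.7 and 47.8 FPKM in shp16 and at 45.8, 44.3 and 45.0 in shp16+shATR, and RPA3 had a log2 fold change of −0.25 (adjusted p = 0.413).

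Of the remaining members, UHRF1 fell. UHRF1, which recognises hemimethylated DNA behind the fork (ENSG00000034063, chromosome 19 from 4903092 to 4962165), was at 11.8, 13.9 and 13.1 FPKM in shp16 and at 8.06, 7.67 and 8.16 in shp16+shATR. It fell by 38.7% (log2 fold change −0.71, SE 0.11, edgeR adjusted p = 0.0036), the lowest adjusted p of the 47. FEN1, the flap endonuclease that trims Okazaki fragments (ENSG00000168496, chromosome 11 from 61560109 to 61564716), was at 24.9, 25.5 and 24.5 FPKM in shp16 and at 19.3, 18.6 and 18.7 in shp16+shATR. The groups were apart, and the log2 fold change of −0.41 (SE 0.11) narrowly missed the threshold (adjusted p = 0.0523). LIG1, which seals the fragments, was at −0.29 (adjusted p = 0.193). TIMELESS, a fork protection factor (ENSG00000111602, chromosome 12 from 56810903 to 56843187), was at 20.9, 22.8 and 22.5 FPKM in shp16 and at 18.8, 18.2 and 18.8 in shp16+shATR, with a log2 fold change of −0.25 (SE 0.09, adjusted p = 0.138). TIPIN, its partner, and WDHD1, which links the helicase to polymerase alpha, were at −0.34 and −0.53 and were not called (adjusted p = 0.195 and 0.0754).

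**Figure D3:**
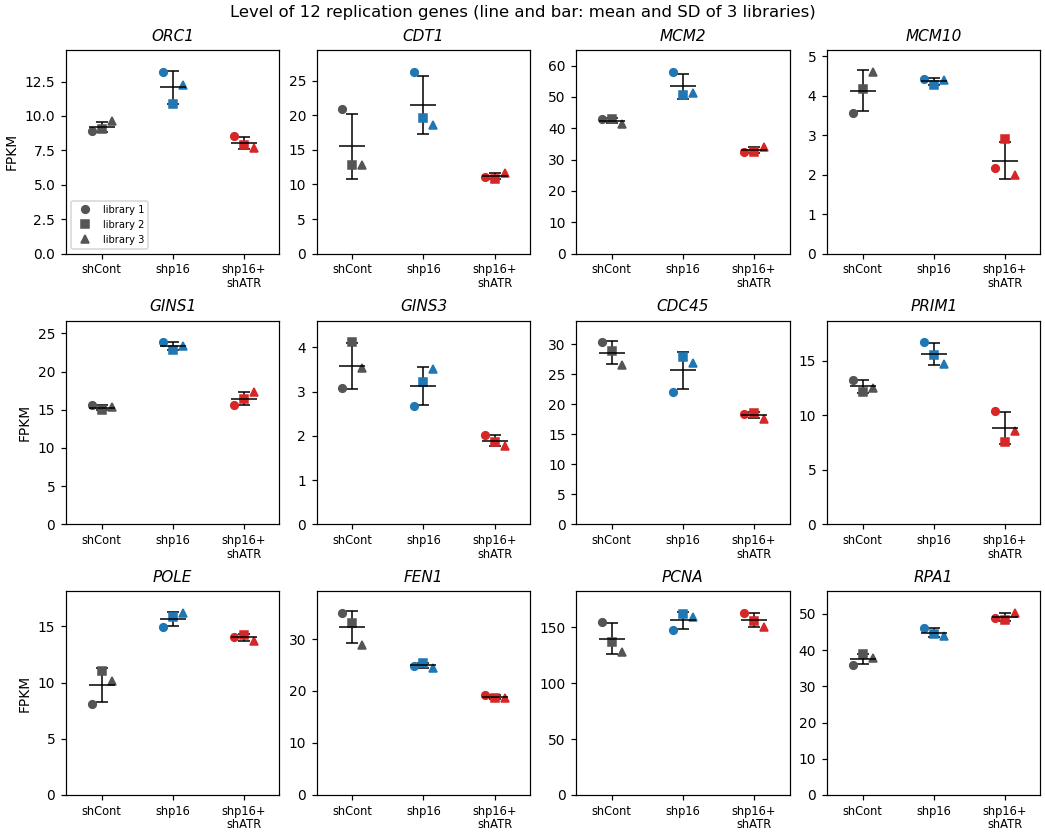
FPKM of 12 members in each library. Circles, squares and triangles are replicates 1, 2 and 3, and the line and bar are the mean and SD of the 3 libraries of a group. MCM2, MCM10, GINS3, CDC45 and PRIM1 are lowest in shp16+shATR, whereas PCNA is not, RPA1 is highest there, and POLE and GINS1 are higher in shp16 than in shCont.

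The number of calls moved with the libraries in the fit. All groups share 1 estimate of spread, and leaving out a library of a compared group also makes that group smaller. The part of each in the changes was not tested. Without the library labelled shCont 1, which is in neither group compared, 26 members were lower and 0 higher, at a background of 11.0% of genes lower. Without both that library and shp16 1, 34 were lower and RPA1 was higher, at a background of 14.3% lower and 12.4% higher. Leaving out shp16 1, 2 or 3 alone gave 8, 6 and 5 lower members, at a background of 1.83%, 1.49% and 1.49% of genes lower, and leaving out shp16+shATR 1, 2 or 3 gave 4, 3 and 5, at a background of 1.03%, 1.04% and 1.27%. The calls over all genes thus fell together with those of the members. MCM2, MCM10 and UHRF1 were called in each of the 9 fits that left out 1 library (highest adjusted p 0.0439, 0.0423 and 0.0364, edgeR). PRIM1 lost its call without shp16+shATR 2 alone (adjusted p = 0.0521). The other 10 members called kept the call in 1 (MCM3) to 5 (GINS1) of these fits, with log2 fold changes that stayed below 0 throughout, from −1.07 to −0.73 for CDT1 and from −0.39 to −0.33 for MCM3.

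**Figure D4:**
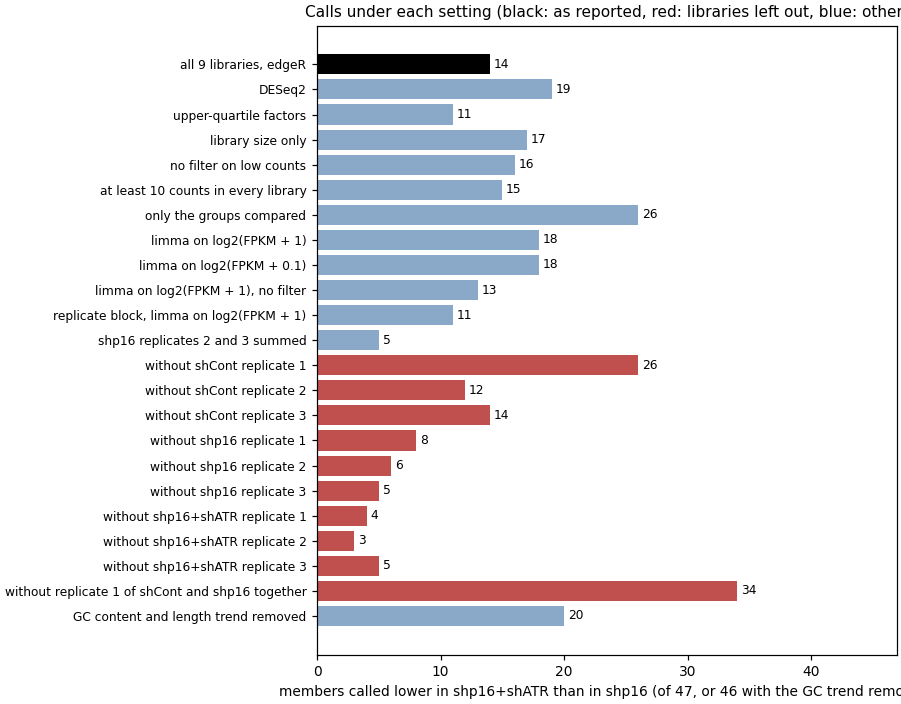
Number of the 47 members called lower in shp16+shATR than in shp16 under each setting. Black is the fit reported, red bars leave out libraries and blue bars change the method. The count runs from 3 without shp16+shATR 2 to 34 without replicate 1 of shCont and shp16.

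In shp16 against shCont, which asks what the p16 hairpin changed, 3 members were called higher and 2 lower. The share called higher (6.38% of members) was near that of all genes tested (7.23%), and the share called lower was 4.26% of members and 7.59% of all genes. Over the 47 genes the log2 fold change had a median of 0.11, with 32 above 0 and 15 below, and over all genes tested a median of −0.016. Markers of epithelial cells moved with this comparison, with a summed level over 4 genes of 0.569 to 0.941 FPKM in shCont and of 5.79 to 6.59 in shp16. CDH1 lay between 0.348 and 0.620 FPKM in shCont and between 3.26 and 3.98 in shp16, KRT14 at 0.0962 or less and between 1.29 and 1.67, and KRT5 at 0 in every shCont library and between 0.751 and 1.21. EPCAM did not move with them, at 0.0618 to 0.321 FPKM in shCont and 0.113 to 0.116 in shp16. The part of these markers in the results was not tested.

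POLE, which copies the leading strand, had the largest rise. Its level (ENSG00000177084, chromosome 12 from 133200348 to 133413387) was 8.13, 11.0 and 10.2 FPKM in shCont and 14.96, 15.9 and 16.2 in shp16, with no overlap, and the log2 fold change was 0.69 (SE 0.11, edgeR adjusted p = 0.00125). The gene model overlaps GOLGA3 on the same strand, which had 174% of POLE's mean count and a log2 fold change of 0.36 (adjusted p = 0.126), and whose part in the counts was not tested. GINS1 was at 15.6, 14.9 and 15.3 FPKM in shCont against 23.8, 22.8 and 23.3 in shp16, a log2 fold change of 0.62 (SE 0.10, adjusted p = 0.00238). Both genes were called in each of the 9 fits that left out 1 library, with highest adjusted p of 0.00815 and 0.015. ORC1 was at 8.94, 9.05 and 9.62 FPKM in shCont and, as given above, at 10.8 or more in each shp16 library (log2 fold change 0.41, SE 0.12, adjusted p = 0.0436). Its call was lost without any 1 of 7 libraries, shCont 2 and 3, shp16 1 and 3 and the 3 of shp16+shATR, with a highest adjusted p of 0.14.

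FEN1 and ORC5 were the members that fell. FEN1 was at 35.0, 33.1 and 28.9 FPKM in shCont, above the 24.5 to 25.5 of shp16, with a log2 fold change of −0.37 (SE 0.11, edgeR adjusted p = 0.0452). FEN1 overlaps FADS2 on the same strand, which had 36.9% of FEN1's mean count and a log2 fold change of 0.38 (adjusted p = 0.158). The part of FADS2 in the counts was not tested. ORC5 was at 22.9, 22.7 and 22.0 FPKM in shCont, above the 15.4 to 19.9 of shp16, with a log2 fold change of −0.33 (SE 0.10, adjusted p = 0.04997). Both calls were fragile. FEN1 kept its call without the library labelled shCont 1 or without shCont 3 and lost it without any other single library (highest adjusted p 0.159), and ORC5 kept its call without the library labelled shCont 1 and lost it without each of the others (highest adjusted p 0.145). Without the library labelled shCont 1, 13 members were higher and 4 lower, at a background of 13.4% and 12.5%. Those 13 were MCM2, MCM7, CDT1, GINS1, GINS2, ORC1, PCNA, RFC5, RPA1, RPA2, POLD1, POLD2 and POLE, and without shp16 1 as well there were 16 higher and 5 lower, at a background of 16.9% and 15.8%. CDT1 was at 20.9, 12.8 and 12.8 FPKM in shCont, where the first value falls within the range of shp16 and the others lie below it. Its log2 fold change was 0.47 with all libraries (SE 0.22, adjusted p = 0.175) and 0.79 without the library labelled shCont 1 (adjusted p = 0.00382, in a range from 1.24e-05 to 0.529 over all alternatives). MCM2 was at 43.0, 42.8 and 41.4 FPKM in shCont, below every shp16 value, but was not called (log2 fold change 0.34, SE 0.11, adjusted p = 0.0619).

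In shp16+shATR against shCont, which shares its libraries with the comparisons above, 19 members were lower and 2 higher, against 12.7% and 10.9% of all genes tested. The members' log2 fold changes had a median of −0.22, with 37 of 47 below 0, and those of all genes a median of −0.018. GINS3, at 3.07, 4.11 and 3.52 FPKM in shCont, and MCM10, at 3.58, 4.18 and 4.61, had log2 fold changes of −0.91 (SE 0.14, edgeR adjusted p = 0.000916) and −0.80 (SE 0.15, adjusted p = 0.00267). FEN1 fell by 41.6% (log2 fold change −0.78, SE 0.11, adjusted p = 0.000516) and ORC6, at 24.1, 23.7 and 20.2 FPKM in shCont, fell by 38.8% (log2 fold change −0.71, SE 0.17, adjusted p = 0.0122). None of these 4 genes overlapped between the groups. All shp16+shATR libraries lay below all shCont libraries in 26 members and in 3402 of the 15776 genes tested. They lay above in 3 members and in 3141 genes. CDC45, at 30.3, 28.8 and 26.5 FPKM in shCont, had a log2 fold change of −0.65 (SE 0.11, adjusted p = 0.00125). The others called lower were MCM2, MCM4, MCM5, CDC6, GINS4, ORC5, RFC2, RFC4, POLA2, PRIM1, POLD3, POLE2, LIG1 and UHRF1, with log2 fold changes from −0.70 (POLA2) to −0.35 (LIG1). PRIM1 was at 13.3, 12.2 and 12.5 FPKM in shCont, above every shp16+shATR value. UHRF1 was at 10.2, 13.2 and 12.8 FPKM in shCont, also above every shp16+shATR value. RFC4, a clamp loader subunit, overlaps EIF4A2 on the opposite strand, which had 609.6% of its mean count and a log2 fold change of −0.13, and whose part was not tested. POLD3 overlaps AP001372.2 on the same strand, which had 19.7% of its mean count and a log2 fold change of −0.62 (adjusted p = 0.0423). The part of AP001372.2 was not tested either. The summed epithelial markers were at 5.68 to 7.18 FPKM in shp16+shATR, again above shCont, and their part was not tested.

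POLE and RPA1 were higher in shp16+shATR than in shCont. POLE was at 14.1, 14.3 and 13.7 FPKM in shp16+shATR (log2 fold change 0.53, SE 0.11, edgeR adjusted p = 0.00398). RPA1 was at 36.0, 38.9 and 37.9 FPKM in shCont, below every value of both other groups (log2 fold change 0.39, SE 0.10, adjusted p = 0.0142). GINS1 and ORC1, which rose with the p16 hairpin and fell with the added ATR hairpin, were not called here, at 0.11 (SE 0.10, adjusted p = 0.499) and −0.19 (SE 0.12, adjusted p = 0.292). CDT1 and MCM7 were not called either, at −0.48 (SE 0.22, adjusted p = 0.144) and −0.08 (SE 0.11, adjusted p = 0.643). The number of lower members was 20 without the library labelled shCont 1 (17.5% of all genes lower) and 11, 10 and 10 without shp16+shATR 1, 2 or 3 (7.58%, 7.76% and 7.63% of all genes lower). RFC2 and POLE2 lost their calls without the library labelled shCont 1, and MCM6, RFC3 and WDHD1 gained one. MCM5 stayed called, with a log2 fold change of −0.58 with all libraries and −0.35 without the library labelled shCont 1. The higher members were 4 without the library labelled shCont 1 (15.9% of all genes higher) and 1 without shp16+shATR 1 or 3 (6.96% and 7.25% of all genes higher). MCM10, CDC6, CDC45, GINS3, RFC4, POLA2, POLE, FEN1 and UHRF1 were called in all fits that left out 1 library.

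For each of the 47 members the two-sided exact permutation test on FPKM could not go below p = 0.1 with 3 libraries against 3. It gave that value wherever the groups did not overlap. For several members chosen by the highest mean FPKM in their role class, the shCont values follow. MCM7 was at 133, 116 and 111 FPKM in shCont, below every shp16 value. PCNA was at 154, 137 and 128 FPKM in shCont, and GMNN at 31.8, 31.4 and 30.1, both overlapping shp16. RPA2 was at 45.2, 37.7 and 40.7 FPKM in shCont. In RPA2, and more so in POLD2 at 88.6, 60.6 and 59.6, the library labelled shCont 1 lay above the other shCont libraries. TIMELESS was at 18.7, 21.0 and 19.7 FPKM in shCont. None of the last 5 genes was called in any comparison.

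Other genes of DNA replication and chromatin assembly, 35 in all, gave 8 lower (22.9%, against 3.49% of all genes) and 0 higher (against 2.73%) in shp16+shATR against shp16. Their median log2 fold change was −0.23. At an unadjusted p under 0.05 in edgeR there were 11, none of them higher, against 10.6% of all genes that were lower. The lower genes included the histone chaperone subunits CHAF1A (−0.72, edgeR adjusted p = 0.0039) and CHAF1B (−0.72, adjusted p = 0.0036), the checkpoint mediator CLSPN (−0.94, adjusted p = 0.0186) and DTL (−0.65, adjusted p = 0.0103), the adaptor that leads CDT1 to degradation. In shp16 against shCont 1 of the 35 was higher (2.86%, against 7.23% of all genes) and 1 lower (2.86%, against 7.59%). In shp16+shATR against shCont 9 were lower (25.7%, against 12.7% of all genes) and 0 higher (against 10.9%, and 1 was higher at an unadjusted p under 0.05). Genes of G2 phase and mitosis, 25 in number, had log2 fold changes below 0 in shp16+shATR against shp16 without exception, with a median of −0.31. In 23 of them all 3 shp16+shATR libraries lay below all 3 shp16 libraries, against 19.6% of all genes. Only 1 was called (4%, near the 3.49% of all genes), CCNA2 (−0.52, SE 0.12, adjusted p = 0.0279), the cyclin of S and G2 phase. Of these 25 genes 3 were higher (12%, against 7.23% of all genes) and 0 lower in shp16 against shCont. In shp16+shATR against shCont 0 were higher and 4 lower, a share of 16% that is near the 12.7% of all genes. Both the 35 and the 25 genes were chosen with earlier results of these data known, so neither list is a separate test.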

How the data were processed

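RNA was extracted with Trizol and a column clean-up with DNase, libraries were made with the NEBNext Ultra II kit, and Novogene sequenced and processed them. The deposited count table holds the authors' raw read counts per gene, with no normalization. The deposited FPKM values are the authors' counts scaled by gene length and library total. The submitters' processing notes name STAR 2.6.1, DESeq2 and GRCh38, whereas the gene coordinates in the tables are those of GRCh37. The 3 shp16+shATR count columns share 1 name and were matched to FPKM columns 1 to 3 (largest relative difference 3.3e-07). No column was left out.

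Counts were fitted with edgeR 4.0.16 in R 4.3.3 (TMM, filterByExpr, quasi-likelihood test, all 9 libraries, 1 coefficient per group), and 15776 genes were adjusted together by Benjamini-Hochberg, with calls at 0.05. Exact permutation tests on FPKM used scipy 1.17.1. The alternatives were DESeq2 1.42.0, upper-quartile or library-size scaling, other filters on low counts (none, or at least 10 in every library), fits of the compared groups alone, limma 3.58.1 on log2(FPKM + 1) or log2(FPKM + 0.1) with a mean FPKM of 0.5 or no filter, a replicate term, shp16 replicates 2 and 3 summed, a threshold of 0.01 and each library left out in turn. Leaving out replicate 1 of shCont and shp16 together, and removing each library's GC and length trend, were chosen after seeing the data. Libraries shp16 2 and 3 were the most alike but still differed beyond sampling noise (chi-square per gene 1.94), so all 9 libraries were kept. The procedure was tested on simulated data.

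The members, roles and other lists were chosen with earlier results of these data known. Values in every library are given for members among the 4 largest rises or falls called in a comparison and for the member with the highest mean FPKM in each of 10 role classes, and also for MCM2, which was chosen after its values were seen.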

Additional observations from a re-analysis of the deposited data

How the results depend on the processing

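These results are limited by the spread of 3 libraries a group, which may be technical, and by the libraries shCont 1 and shp16 1, while the effect of depth was not tested. The biological coefficient of variation was 0.149 with all libraries, 0.0903 without shCont 1 and 0.0553 without both. With all 9 libraries few members pass the test at changes under 0.4 on the log2 scale. Over 9 results on the members as a list and 207 values, 122 stayed within the limits set and 85 moved. The limits were wide for counts and narrow for medians. In shp16+shATR against shp16, 14 lower members becoming 11 or 20 counted as within them. A median of −0.356 becoming −0.347 counted as moved. Over 46 results on single genes and 1017 values, 812 kept direction and call, 198 lost the call, 5 gained it and 2 changed sign. Those 2 are the log2 fold change of ATR in shp16 against shCont, −0.12 without shCont 1 and −0.17 without replicate 1 of both groups, in a range of −0.12 to 0.33 with 1 library left out. Beyond the libraries that a setting leaves out, the cause of a change was not tested.

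Shares of all genes called are given in brackets. In shp16 against shCont, the 2 lower members became 1 with library size only (6.99%), with limma under each filter and pseudocount (2.54% to 6.12%), and with the GC and length trend removed (11.2%). They became 0 with no filter (4.67%), with only the groups compared (4.19%), with shp16 2 and 3 summed (4.20%) and at an adjusted p of 0.01, and 5 without both replicates 1 (15.8%). Leaving out 1 library gave 0 to 4 lower (4.13% to 12.5%) and 2 to 13 higher (4.16% to 13.4%). The 3 higher members became 6 with DESeq2 (9.31%) and with limma on log2(FPKM + 1) or log2(FPKM + 0.1) (5.84% and 5.69%). They became 5 with limma and no filter (2.22%), 8 with the GC and length trend removed (12.6%) and 16 without both replicates 1 (16.9%). The median of 0.11 became 0.0457 with upper-quartile factors, 0.125 with no filter, 0.121 with shp16 2 and 3 summed or the GC and length trend removed, 0.053 without both replicates 1 and 0.053 to 0.13 with 1 library left out.

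In shp16+shATR against shp16, the 14 lower members became 26 with only the groups compared (10.7% of all genes lower), 5 with shp16 2 and 3 summed (1.5%) and 4 at an adjusted p of 0.01. They became 34 without both replicates 1 (14.3%, with 1 higher against 12.4%) and 3 to 26 with 1 library left out (1.03% to 11.0%). There were 11 with upper-quartile factors (2.86%), 17 with library size only (3.31%), 16 with no filter (2.52%) and 15 with at least 10 counts (4.27%). Limma gave 18 on log2(FPKM + 1) or log2(FPKM + 0.1) (3.42% and 3.43%) and 13 with no filter (1.15%). With the GC and length trend removed there were 20 (8.02%). The median of −0.36 became −0.347 with DESeq2, −0.318 with upper-quartile factors, −0.349 with library size only or log2(FPKM + 0.1), −0.37 with no filter, −0.348 with at least 10 counts, −0.319 with limma on log2(FPKM + 1) with either filter, −0.364 with shp16 2 and 3 summed, −0.316 without both replicates 1 and −0.377 to −0.312 with 1 library left out.

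In shp16+shATR against shCont, the 19 lower members became 9 at an adjusted p of 0.01 and 10 to 20 with 1 library left out (7.58% to 17.5% of all genes lower). They became 26 without both replicates 1 (23.2%), 15 with only the groups compared (10.8%) and 16 with no filter (7.33%). The 2 higher became 1 at 0.01, 5 without both replicates 1 (21.1% of all genes higher) and 1 to 4 with 1 library left out (6.84% to 15.9%). The median of −0.22 became −0.208 with DESeq2, −0.244 with upper-quartile factors, −0.214 with at least 10 counts and −0.253 to −0.209 with 1 library left out.

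The deviations of same-numbered libraries from their group means had correlations from −0.303 to 0.289. Libraries did not each correlate best with their own number, and the largest correlation was 0.426, of shp16 1 with shp16+shATR 3. With 3 libraries a group the deviations sum to 0, so these values cannot exclude a pairing of the libraries. With the replicate block in limma on log2(FPKM + 1), 1 member was lower and 2 higher in shp16 against shCont (4.17% and 4.06% of all genes). In shp16+shATR against shp16, 11 were lower and 0 higher (1.83% and 1.23% of all genes), with a median of −0.319. In shp16+shATR against shCont, 17 were lower and 2 higher (9.55% and 8.48% of all genes). With the replicate block in edgeR on the shCont and shp16 counts, 0 were lower and 0 higher (1.49% and 1.30% of all genes), with a median of 0.12.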
